A study of Bos taurus with 53 samples.

Results

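Messenger RNA was measured in the extraembryonic tissue of single bovine embryos recovered on day 14 from recipient cows, and ovoid embryos were compared with tubular ones. All came from oocytes matured in vitro in the BASAL medium, which held 28 µM stearic, 23 µM palmitic and 21 µM oleic acid in 0.45% ethanol, were fertilised and cultured in vitro and were then transferred. Libraries were taken by tissue, medium and shape as named in the table, and a library of fewer than 10000 exon reads was dropped. This kept 13 of the 53 libraries of the series, 4 ovoid and 9 tubular, and dropped 1 tubular library with 9810 reads. The ovoid embryos were 3 males and 1 female from 3 cows, and the tubular embryos were 5 males and 4 females from 6 cows. Some embryos shared a cow, so they are not fully independent, and p-values measure the spread between embryos. Shape was observed and not assigned, so what led an embryo to be ovoid cannot be told apart from its shape.

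In the weeks before implantation the bovine embryo passes from a sphere through an ovoid to a tubular and then filamentous form while still free in the uterus. The extraembryonic tissue consists mainly of trophectoderm, the outer epithelium, and of hypoblast, the layer beneath it that forms the yolk sac. The trophectoderm secretes interferon tau, the signal by which the ruminant mother recognises pregnancy, and prostaglandins, and PPARG is a nuclear receptor of fatty acid derivatives that has been tied to elongation in ruminants.

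The libraries did not split by shape alone. A number 2 stands before the sample index in the column names of ovoid replicates 1 and 2 and of tubular replicate 8. The labels do not say what it means, and it is called mark 2 here. On the first component of the 500 most variable genes the 3 marked libraries lay at 24.4, 26.03 and 49.0 and the other 10 between -14.2 and -3.00. Among the unmarked libraries, ovoid replicates 3 and 4 lay at -3.18 and -3.00 and the tubular ones between -14.2 and -8.09. On the second component (12.1% of variance) the ovoid libraries lay between -20.7 and -3.21. The tubular ones lay there between 1.69 and 16.6, except replicate 9 at -3.63. Tubular replicate 8 stood furthest out on the first component. Mitochondrially encoded genes took 20.9% of its reads against 3.80% to 5.87% in the other 8 tubular libraries, and its scaling factor was 0.665 against 0.9704 to 1.07. Mark 2 was on 2 of 4 ovoid and 1 of 9 tubular libraries, so results are given for all 13 libraries and again without the 3 marked ones, which leaves 2 ovoid (replicates 3 and 4) against 8 tubular. Exon reads ran from 3101968 to 9802841 in ovoid and from 3168158 to 11617942 in tubular libraries, and none of the 5 library properties compared differed by shape in a two-sided exact permutation test (adjusted p from 0.601 to 0.843).

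**Figure D1:**
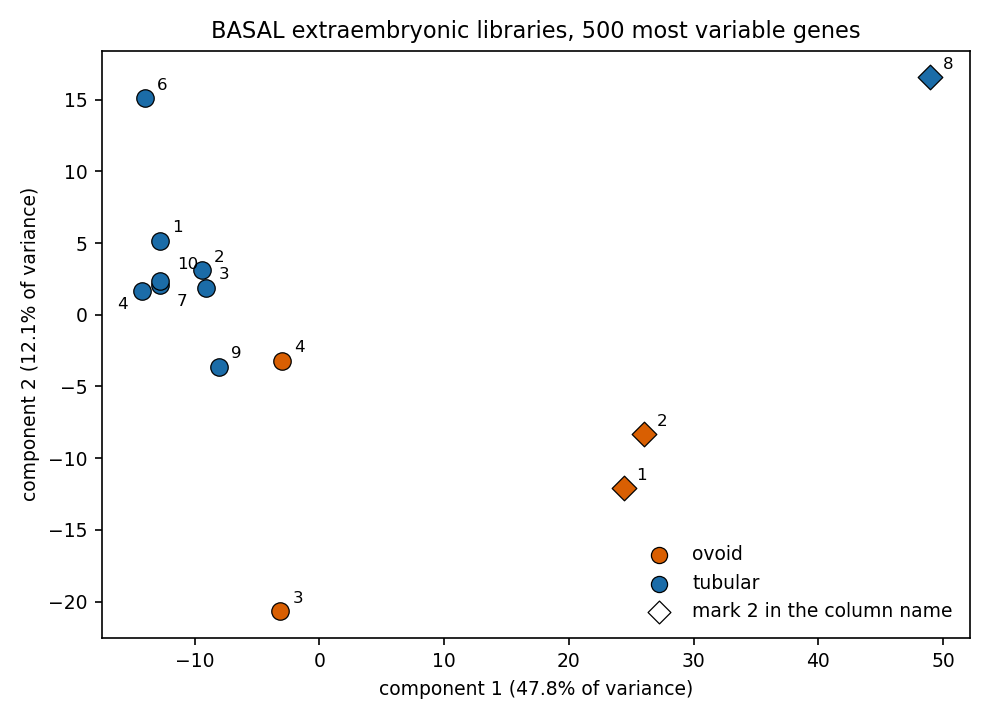
Principal components of log2 CPM of the 500 most variable genes in the 13 libraries, component 1 on the horizontal and component 2 on the vertical axis, with replicate numbers beside the points. The 3 libraries with mark 2 (diamonds) lie to the right at 24.4 to 49.0, ovoid and tubular alike. The unmarked ovoid libraries 3 and 4 lie next to the unmarked tubular libraries on component 1, to their right. On component 2 the ovoid libraries lie below the tubular ones except tubular replicate 9.

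Markers of the labelled tissue were present. IFNT2, an interferon tau gene, stood at 1787 CPM or more in every library (CPM, counts per 1000000 exon reads after TMM scaling). Reads were found for 17 of the 19 trophectoderm factors in the table, with KLF5 and GCM1 at 0. They were found for 15 of 19 hypoblast and yolk sac genes, with TTR, AFP, CUBN and CER1 at 0. SOX2, which marks the embryonic disc, had 0 reads in all 13 libraries, which allows up to 0.967 CPM in the shallowest one, but 6 of 8 epiblast genes in the table had reads, summing to 38.2 to 107 CPM in ovoid and 20.9 to 63.6 CPM in tubular libraries. Among them UTF1, a chromatin factor of pluripotent cells, measured 9.43, 9.83, 19.9 and 6.25 CPM in ovoid libraries and 1.46 to 9.56 CPM in tubular ones. Of 19 streak and mesoderm genes 16 had reads, summing to 131 to 187 CPM in ovoid and 78.3 to 155 CPM in tubular libraries, with T, GSC and FGF8 listed at 0. Their part in the results was not tested. The summed level of 6 maternal endometrial epithelium genes was 9.40 to 10.5 CPM in ovoid and 4.90 to 11.8 CPM in tubular libraries, with PAEP and OXTR at 0. For 9 maternal immune genes it was 6.33 to 14.2 CPM in ovoid and 3.94 to 27.8 CPM in tubular libraries, the highest being tubular replicate 8, with PTPRC at 0. In bulk tissue, fewer cells of a type and less RNA per cell cannot be told apart, and this holds for every gene below.

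With all 13 libraries and sex as a term, edgeR's quasi-likelihood test called 1 of 10679 genes at an adjusted p under 0.05 (0.00936%), RDH12, which was higher in ovoid tissue. An unadjusted p under 0.05 was reached by 1069 genes higher in ovoid tissue (10%) and by 1175 lower (11%). With recipient cow as a block edgeR called 0 (466 under an unadjusted p of 0.05), and with a term for sequencing lane 0 (943 under it). The cow block draws the shape difference from cows 07 and 12 alone, which carried both shapes. With cow as a correlated block limma-voom called 1. DESeq2 on the same libraries called 560 (5.24%), 176 higher and 384 lower. Without tubular replicate 8, edgeR called 1409 genes higher (13.1% of 10724) and 1315 lower (12.3%). In those 12 libraries mark 2 is found on ovoid embryos alone, 2 of 4 against 0 of 8, so shape and mark 2 are partly confounded there, and with a term for mark 2 the count was 0. With the 3 marked libraries left out it was 0 as well (smallest adjusted p = 0.0514), with 2361 genes under an unadjusted p of 0.05. Leaving out ovoid replicate 4, which is unmarked, gave 752 calls, and leaving out any 1 of the other 11 libraries gave 0 or 1. Genes are therefore described below mainly by their values, and "called" refers to the 12 libraries where that is said.

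**Figure D2:**
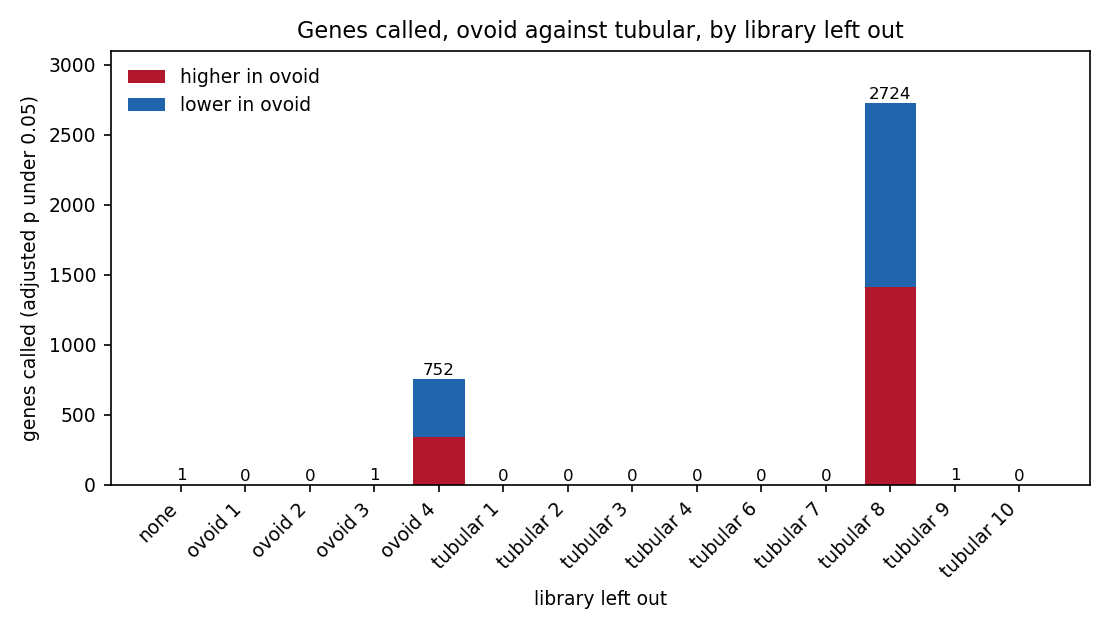
Genes called at an adjusted p under 0.05 by edgeR (vertical axis, stacked by direction) when each library in turn is left out (horizontal axis). The count is 1 with every library in, 2724 without tubular replicate 8, 752 without ovoid replicate 4, and 0 or 1 otherwise.

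A simpler count asks for how many genes the 4 ovoid values and the 9 tubular values do not overlap, with marked libraries on both sides. All ovoid values lay above all tubular values for 73 genes (0.684% of 10679), and all lay below for 78 (0.730%). These genes were not tested further.

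RDH12 encodes a retinol dehydrogenase, an enzyme that interconverts retinal and retinol (chromosome 10, 80159083 to 80167935, UMD3.1). It measured 11.6, 9.40, 9.50 and 7.03 CPM in ovoid replicates 1 to 4, and 1.47 CPM at the lowest, 1.86 at the median and 3.89 at the highest of the tubular libraries. Marked and unmarked ovoid libraries were alike, and the groups did not overlap. The log2 fold change was 2.03 ± 0.28 (SE, edgeR adjusted p = 0.0387), and 1.81 ± 0.35 without the marked libraries (adjusted p = 0.0514). Across 36 other settings it stayed between 1.69 and 2.43, with 16 of them under an adjusted p of 0.05. The call was lost with cow as a block (1.69, edgeR adjusted p = 0.731) and with a lane term (2.13, edgeR adjusted p = 0.553). A mark 2 term removed it too (1.905, edgeR adjusted p = 0.100). So did leaving out ovoid replicate 1, 2 or 3 or tubular replicate 1, 2, 3, 4, 6, 7 or 10. Between embryos of a cow, the ovoid exceeded the tubular embryo of cow 07 by 2.36 and those of cow 12 by 0.92 on the log2 scale. The cow 07 pair, ovoid replicate 1 and tubular replicate 7, also differed in mark 2 and in lane (3 against 8). The cow 12 embryos were all unmarked and on lane 4. Over all genes 10% reached an unadjusted p under 0.05 upward and 11% downward. Among 11 tested genes of a retinoid list that does not hold RDH12, 3 did so upward and 2 downward. Of these CRABP2, which carries retinoic acid in the cell, measured 12.4, 6.69, 10.4 and 4.30 CPM in ovoid libraries against 0.566 to 6.23 in tubular ones (median 2.43). Its groups overlapped, and its log2 fold change of 1.86 ± 0.52 was not called with 13 libraries (edgeR adjusted p = 0.127).

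Other genes with higher ovoid values encode secreted, surface and junction proteins. PRSS35, a secreted protein of the serine protease family, measured 30.2, 13.5, 25.3 and 11.7 CPM in the ovoid libraries and 1.05 to 9.80 CPM (median 3.24) in the tubular ones, with no overlap. Its log2 fold change was 2.49 ± 0.52 (edgeR adjusted p = 0.112), and 2.16 ± 0.58 without the marked libraries. ALPL, the tissue-nonspecific alkaline phosphatase, measured 63.6, 32.5, 43.5 and 24.1 CPM against 4.39 to 23.4 CPM (median 10.8), again without overlap though by a narrow margin at replicate 4. IGFBP4, which binds insulin-like growth factors, was low throughout, at 1.89, 6.98, 2.30 and 1.66 CPM against 0 to 1.37 CPM (median 0.497). RELT, a receptor of the tumour necrosis factor family, had log2 fold change 1.25 ± 0.26 and no overlap. JAM2, a tight junction adhesion molecule, measured 45.2, 11.8, 21.3 and 15.5 CPM against 4.94 to 12.4 CPM (median 6.14). Its groups overlapped by 1 library on each side, and its log2 fold change was 1.79 ± 0.35 (edgeR adjusted p = 0.112). FOLR1, a folate receptor, measured 37.7, 20.6, 31.9 and 10.4 CPM against 2.86 to 14.7 CPM (median 8.00), with a log2 fold change of 1.95 ± 0.47, and 0.99 with cow as a block. In all of these except RELT and IGFBP4 ovoid replicate 4, the female, or replicate 2 was the lowest of the ovoid libraries and replicate 1 the highest. ALPL, FOLR1, SHMT2, PDGFRA, ABCD3, FAM213A and PLA2G7 were chosen after their values were seen.

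Some differences were smaller. MYBBP1A, a nucleolar protein, measured 525, 463, 491 and 357 CPM against 232 to 350 CPM (median 292), a log2 fold change of 0.64 ± 0.14. SHMT2, the mitochondrial enzyme that passes carbon units from serine to folate, measured 248, 195, 220 and 173 CPM against 69.9 to 153 CPM (median 122). Neither overlapped between shapes and neither was called with 13 libraries (edgeR adjusted p = 0.112 for each), and for SHMT2 tubular replicate 8 was the highest tubular library.

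Of the prostaglandin genes, PTGS2, SLCO2A1, PTGES3 and, by less, PTGES had lower ovoid medians, and none of the 7 tested was called with 13 libraries. PTGS2, the inducible cyclooxygenase (chromosome 16, 69263775 to 69271399, UMD3.1), measured 140, 238, 218 and 777 CPM in the ovoid libraries, and 514 CPM at the lowest, 1420 at the median and 6881 at the highest of the tubular ones. Ovoid replicates 1 to 3 lay below every tubular library and replicate 4 within them, while tubular replicate 6 was far above the rest. The log2 fold change was -2.48 ± 0.70 (edgeR adjusted p = 0.127), -2.35 ± 0.86 without the marked libraries, and -2.63 without tubular replicate 8, where it was called (edgeR adjusted p = 0.0131). With a lane term it was -1.45 (edgeR adjusted p = 0.553). Lane 8 held tubular replicates 6 and 7, with the 2 highest PTGS2 values (6881 and 2508 CPM) and SLCO2A1 values (116 and 54.1 CPM), and no ovoid library. Within lanes 3 and 4, which held both shapes, the PTGS2 difference was -2.34 and -0.27 on the log2 scale. SLCO2A1, the prostaglandin transporter, measured 7.00, 6.12, 14.97 and 26.2 CPM against 18.5 to 116 CPM (median 33.5). Its log2 fold change was -1.57 ± 0.41 with 13 libraries and -1.27 ± 0.47 without the marked ones. For PTGS2 and SLCO2A1 ovoid replicate 4 came nearest to the tubular level. Within cow 12 it differed from the tubular embryos by -0.64 for PTGS2 and -0.28 for SLCO2A1, against -4.16 and -2.86 within cow 07. The cow 07 pair was marked ovoid replicate 1 (lane 3) and tubular replicate 7 (lane 8), so mark 2 and lane differed too. PTGES3, a prostaglandin E synthase and cochaperone, had log2 fold change -0.60 ± 0.24, while PTGES, the inducible prostaglandin E synthase, had -0.35 ± 0.41. Of 7 tested genes of this list 3 reached an unadjusted p under 0.05, all lower in ovoid tissue (11% of all genes). Of the 7, 2 had a log2 fold change above 0, and the median was -0.60, against 0.07 in HIGH PA.

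**Figure D3:**
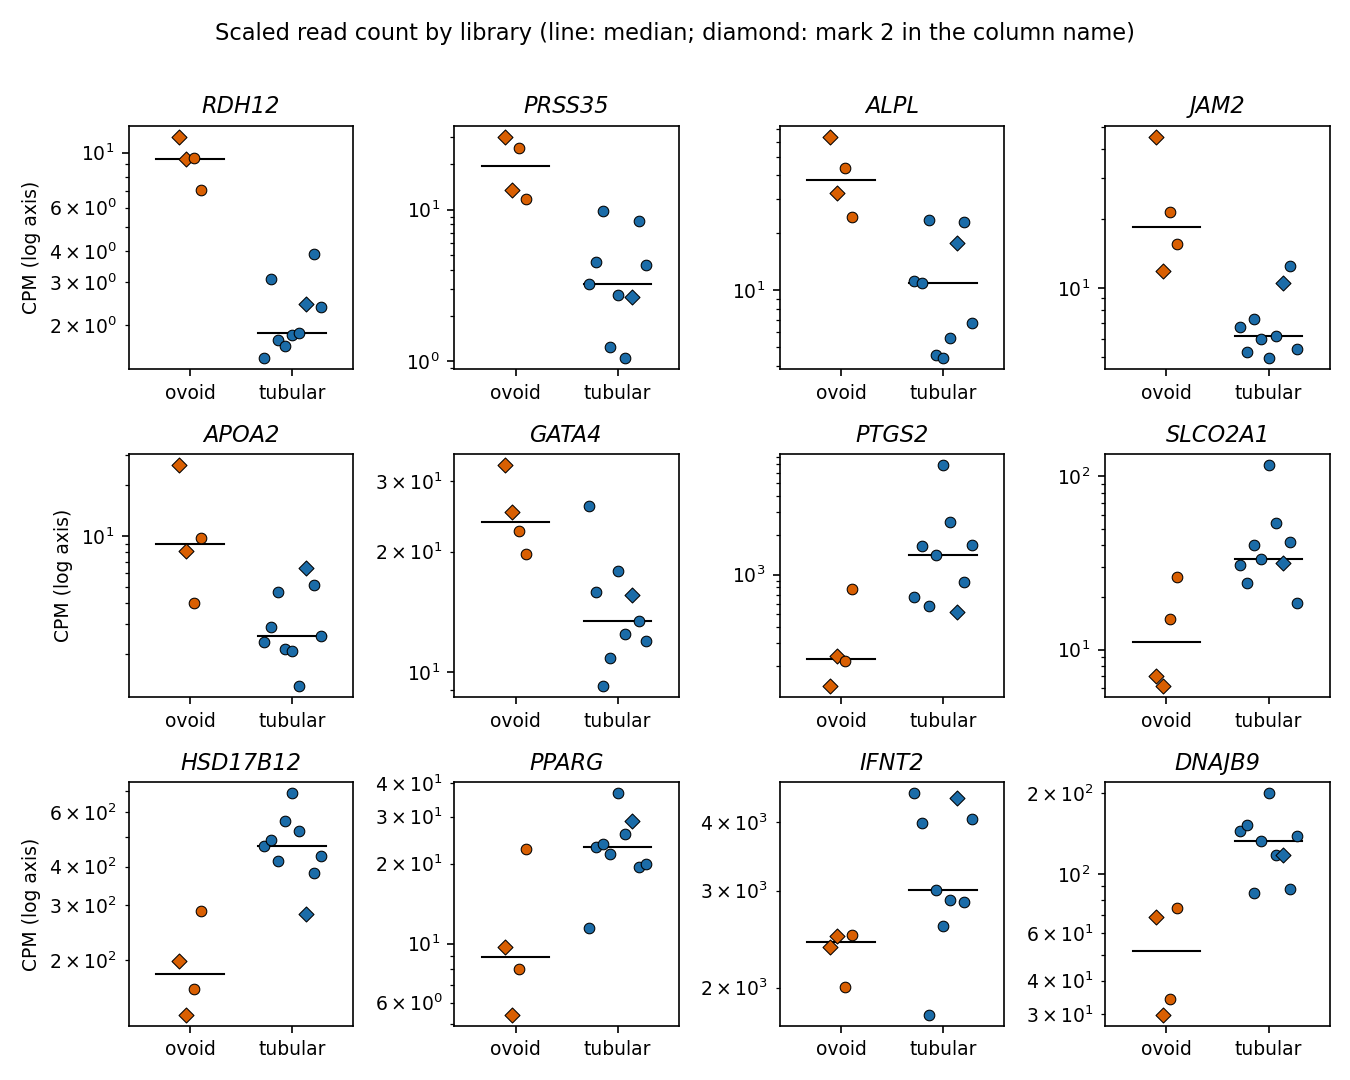
Scaled read counts (CPM, log axis) of 12 genes in each of the 4 ovoid and 9 tubular libraries, with the median as a line and mark 2 as diamonds. RDH12, PRSS35, ALPL and DNAJB9 do not overlap between shapes, and for PTGS2, SLCO2A1, PPARG and HSD17B12 ovoid replicate 4 lies highest among the ovoid points.

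PPARG measured 9.70, 5.41, 8.06 and 22.6 CPM in ovoid libraries against 11.5 to 36.7 CPM (median 23.0) in tubular ones. Replicates 1 to 3 lay below every tubular library and replicate 4 near the tubular median. The log2 fold change was -1.003 ± 0.29 (edgeR adjusted p = 0.129) and -0.70 ± 0.34 without the marked libraries. The embryos of cow 12 differed by 0.10, in the other direction. IFNT2 measured 2366, 2479, 2002 and 2494 CPM in ovoid libraries against 1787 to 4504 CPM (median 3004), with a log2 fold change of -0.54 ± 0.22 (edgeR adjusted p = 0.191), and it was not called without tubular replicate 8 either (edgeR adjusted p = 0.0652). The table's interferon tau genes are near-identical copies, so reads may be split among them. Of 17 trophectoderm factors PPARG alone reached an unadjusted p under 0.05 downward and GATA2 and ELF3 upward, against 11% and 10% of all genes. The list's median was 0.06. ELF3, an epithelial factor, measured 114, 239, 93.8 and 51.8 CPM against 45.4 to 154 CPM, and the highest tubular value was that of the marked replicate 8. Its log2 fold change of 1.00 ± 0.41 was 0.28 ± 0.25 without the marked libraries.

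Fatty acid and lipid genes lay on both sides. HSD17B12, a reductase of fatty acid elongation that also acts on steroids (chromosome 15, 74652042 to 74830690, UMD3.1), measured 198, 133, 161 and 286 CPM against 282 to 690 CPM (median 465). The sole overlap was between ovoid replicate 4 and the marked tubular replicate 8. The log2 fold change was -1.27 ± 0.24 (edgeR adjusted p = 0.112) and -1.21 ± 0.25 without the marked libraries (adjusted p = 0.0559). MOGAT1, an acyltransferase of diacylglycerol synthesis, measured 111, 99.1, 101 and 220 CPM against 211 to 318 CPM (median 266), with replicate 4 inside the tubular range. SLC27A6, a fatty acid transport protein, measured 17.5, 2.56, 4.32 and 239 CPM against 66.6 to 544 CPM (median 111). Replicate 4 lay above the tubular median and the other 3 far below the tubular range, and the log2 fold change was -2.22 ± 0.76, and -1.36 with cow as a block. ABCD3, a peroxisomal membrane transporter of fatty acids, measured 94.5, 35.9, 40.9 and 167 CPM against 118 to 429 CPM (median 233). FAM213A, a peroxiredoxin-like protein, measured 314, 256, 280 and 1660 CPM against 930 to 3968 CPM (median 1609). PLA2G7, the hydrolase of platelet-activating factor, measured 6.73, 9.69, 2.30 and 6.15 CPM against 11.5 to 108 CPM (median 29.6) and did not overlap, with a log2 fold change of -2.40 ± 0.68, and -1.65 with cow as a block. PLIN2, the coat protein of lipid droplets, measured 40.1, 62.7, 59.6 and 66.4 CPM against 53.9 to 115 CPM (median 70.3), a log2 fold change of -0.43 ± 0.21 (edgeR adjusted p = 0.247). Of 19 lipid droplet and triglyceride genes 3 reached an unadjusted p under 0.05 upward, among them the lipase PNPLA2 (0.71 ± 0.25), and 2 downward. For fatty acid uptake and binding the counts were 0 and 4 of 12, for synthesis 2 and 2 of 13, and for oxidation 1 and 2 of 22. The medians of these lists were -0.21, -0.03 and 0.11. Over all genes 10% lay under that p upward and 11% downward.

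More sterol synthesis genes lay lower than higher in ovoid tissue. Of 23 cholesterol genes 8 reached an unadjusted p under 0.05 downward and 1 upward, against 11% and 10% of all genes. The list's median was -0.18, and -0.21 without the marked libraries. SC5D, a late sterol desaturase, measured 40.4, 12.5, 19 and 31.2 CPM against 31.1 to 76.3 CPM (median 60.8), a log2 fold change of -1.16 ± 0.30. MSMO1, a sterol demethylase, and CYP51A1, the lanosterol demethylase, had log2 fold changes of -1.06 ± 0.33 and -1.17 ± 0.39. With cow as a block the log2 fold changes of SC5D, MSMO1 and CYP51A1 were -0.29, -0.20 and -0.34. Within cow 07 they were -0.33, 0.20 and -0.46, and within cow 12 -0.50, -0.57 and -0.17. In HIGH PA MSMO1 had 0.06 ± 0.41. In the 12 libraries 7 of the 23 were called lower (12.3% of all genes) and 0 higher (13.1% of all genes). Marked replicate 1 was the highest ovoid library for SC5D and MSMO1 and replicate 4 for CYP51A1. MSMO1, CYP51A1 and PTGES3 were chosen after their values were seen, as were PTGES, GATA2, ELF3, LRP2, RBP4 and AMN.

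Among the genes of lowest p in the downward direction, or members of the unfolded protein response list, were 3 that encode proteins of the endoplasmic reticulum and lay among the 78 without overlap (0.730% of all genes). DNAJB9, a cochaperone of the reticulum induced when proteins misfold, measured 69.0, 29.9, 34.2 and 74.7 CPM against 85.0 to 200 CPM (median 132). DNAJC10, a disulfide reductase of the reticulum, measured 179, 142, 148 and 212 CPM against 251 to 326 CPM (median 312). TMX1, a thioredoxin-like membrane protein of the reticulum, measured 51.2, 33.04, 42.6 and 42.7 CPM against 52.3 to 97.2 CPM (median 75.1). Their log2 fold changes were -1.32 ± 0.29, -0.78 ± 0.14 and -0.88 ± 0.17 (edgeR adjusted p = 0.112 for each). Without the marked libraries they were -1.31, -0.78 and -0.81, and with cow as a block -0.63, -0.51 and -0.58 (edgeR adjusted p = 0.731 for each). In HIGH PA they were -0.67 ± 0.385, -0.35 ± 0.24 and -0.15 ± 0.26. Of 28 genes of the unfolded protein response 5 reached an unadjusted p under 0.05, all lower in ovoid tissue (17.9%, against 11% of all genes). DNAJB9 was the sole member without overlap, and the list's median was -0.18. The sorting genes SNX14 (-0.91 ± 0.16, no overlap) and VPS54 (-1.10 ± 0.21, overlapping by the marked tubular replicate 8) lay on the same side.

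Hypoblast and yolk sac genes lay in both directions. Of 13 tested 6 reached an unadjusted p under 0.05 upward and 1 downward, against 10% and 11% of all genes. The list's median was 0.57. Without the marked libraries it was 0.29, with 3 of 13 upward and 2 downward under that p (894 and 1467 of all 11061 genes). APOA2, a lipoprotein component, measured 26.1, 8.12, 4.03 and 9.67 CPM against 1.29 to 6.45 CPM (median 2.57). Its log2 fold change was 2.10 ± 0.45, and 1.08 ± 0.37 without the marked libraries, where replicate 1 with the highest value drops out. PDGFRA, the platelet-derived growth factor receptor of the hypoblast lineage, measured 33.1, 12.7, 31.4 and 21.8 CPM against 2.24 to 20.2 CPM (median 9.08), with log2 fold changes of 1.46 ± 0.49 and 1.37 ± 0.57. GATA4, a transcription factor of the hypoblast, measured 32.9, 25.1, 22.4 and 19.7 CPM against 9.21 to 25.9 CPM (median 13.4), with 0.72 ± 0.25 and 0.54 ± 0.30. AMN, the partner that anchors cubilin (CUBN, which had 0 reads here), had 1.95 ± 0.73. LRP2, the megalin receptor, went the other way at 1768, 1854, 4682 and 5065 CPM against 1695 to 7403 CPM (median 6156). Its 3 lowest values, 1695, 1768 and 1854 CPM, were those of the 3 marked libraries, and its log2 fold change was -0.78 ± 0.37 with them and -0.39 ± 0.14 without them. RBP4, the retinol carrier, measured 19.9, 55.5, 16.1 and 17.2 CPM against 13.6 to 154 CPM (median 75.9). Summed over the 19 genes of the list the level was 3573 to 6821 CPM in ovoid and 4466 to 8939 CPM in tubular libraries, a sum that LRP2 dominates.

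Cell division genes were split. CDK1, the mitotic kinase, measured 81.1, 55.7, 58.1 and 82.8 CPM against 89.3 to 117 CPM (median 109) and did not overlap, with a log2 fold change of -0.61 ± 0.14. Over 34 cell cycle genes 5 reached an unadjusted p under 0.05 upward and 4 downward, against 10% and 11% of all genes. The list's median was 0.03. In the 12 libraries 6 of the 34 were called higher (17.6%, against 13.1% of all genes) and 5 lower (14.7%, against 12.3%), shares near those of all genes. Matrix genes had a median of -0.43 over 18 tested, with 2 under an unadjusted p of 0.05, both lower (11.1%, near the 11% of all genes). FN1, fibronectin, measured 1666, 2884, 2798 and 2511 CPM against 1880 to 8864 CPM (median 4671). ITGA2, a collagen-binding integrin subunit, measured 0.539, 0.570, 2.30 and 0.683 CPM against 1.11 to 4.42 CPM (median 2.73). For hypoxia targets the median was -0.29, with 0 upward and 4 downward of 14 (28.6%, against 11% of all genes). Among the 4 was BNIP3L, a mitophagy receptor, at -0.90 ± 0.24.

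Ribosomal protein and nuclear oxidative phosphorylation genes depended on how mark 2 was treated. In the 12 libraries, where 13.1% of all genes were called higher and 12.3% lower, 20 of 42 cytosolic ribosomal protein genes were called higher and 0 lower. Of 55 nuclear oxidative phosphorylation genes 23 were called higher and 2 lower. Their medians with 13 libraries were 0.31 and 0.20 and without the marked ones 0.15 and 0.05, against 0.01 and -0.01 over all genes. Mitochondrially encoded genes moved as well, with a median of 0.09 with 13 libraries and -0.62 without the marked ones. In these fits 0 and 8 of 11 reached an unadjusted p under 0.05, all 8 lower. Over all 11061 genes tested without the marked libraries 1467 were lower under that p. Exon length moved too. Genes called higher in the 12 libraries had a median exon length of 1579 bases and those called lower 2757, against 1996 for all tested. Across genes, Spearman's rho of exon length with log2 fold change was -0.24 with 13 libraries, -0.11 without the marked ones and 0.03 with mark 2 as a term. With mark 2 as a term the medians of the ribosomal protein and nuclear oxidative phosphorylation lists were -0.03 and -0.04. The part of exon length in these differences was not tested.

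**Figure D4:**
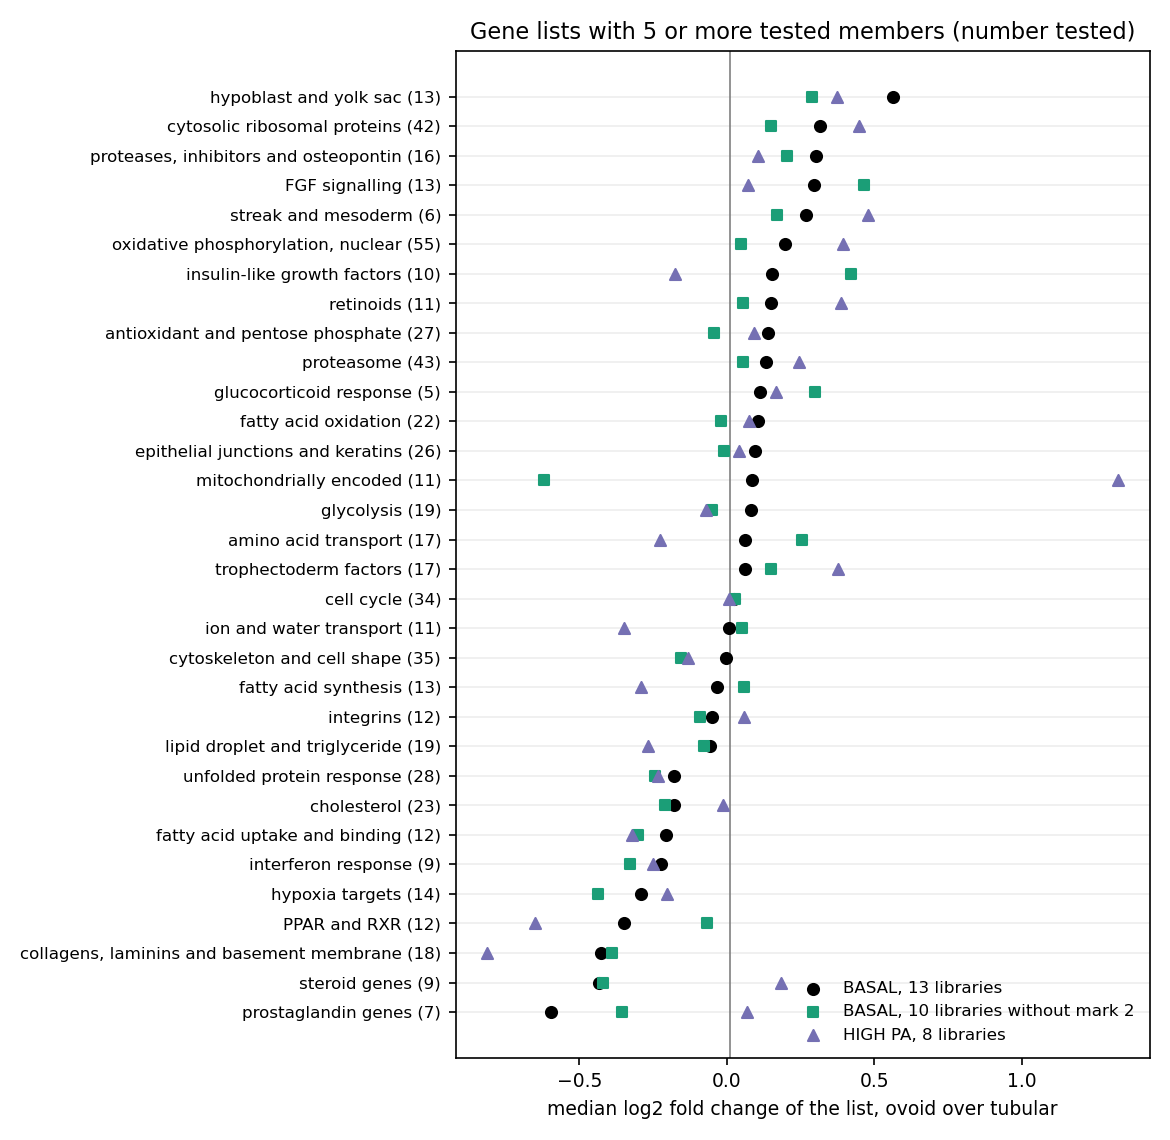
Median log2 fold change (ovoid over tubular) of gene lists with at least 5 tested members, except the p53 and apoptosis list (18 tested). Values are given with all 13 BASAL libraries, with the 10 unmarked ones and in 8 HIGH PA libraries. The grey line is at the median of all genes (0.01). Hypoblast genes have the highest and prostaglandin genes the lowest median with 13 libraries, and mitochondrially encoded genes range from -0.62 without the marked libraries to 1.33 in HIGH PA.

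The same shapes were also collected after maturation in HIGH PA medium, which held 150 µM palmitic acid with the same stearic and oleic acid and ethanol. That set had 4 ovoid libraries, 3 of them marked, and 4 tubular libraries, all unmarked, from 4 cows that also carried BASAL embryos. Ovoid replicate 1 was its only female. With sex as a term, the HIGH PA log2 fold changes and calls therefore rest on 3 ovoid against 4 tubular males. Its edgeR test called 0 of 10393 genes, with 1975 under an unadjusted p of 0.05, and DESeq2 called 361. RDH12 measured 18.5, 11.2, 12.3 and 5.78 CPM in HIGH PA ovoid libraries 1 to 4 against 3.01, 3.52, 2.33 and 0.954 CPM in the tubular ones, and PRSS35 34.3, 20.4, 40.7 and 10.9 CPM against 6.26, 9.43, 2.92 and 0.848 CPM. PTGS2 measured 422, 287, 352 and 703 CPM against 789, 760, 7491 and 7159 CPM, the last 2 being the lane 8 libraries of that set, which were both tubular. None of these 3 overlapped there, as was so for 3.55% of all genes upward and 3.61% downward. The log2 fold changes of PPARG and SLCO2A1 in HIGH PA were -1.82 ± 0.74 and -2.39 ± 0.74. The lane 8 libraries, tubular replicates 3 and 4, were again highest, at 38.8 and 47.1 CPM for PPARG and 106.5 and 97.6 CPM for SLCO2A1. Tubular replicates 1 and 2 had 13.0 and 16.6 CPM for PPARG and 30.3 and 23.7 CPM for SLCO2A1. Ovoid replicate 4 was near these, at 16.5 and 24.25 CPM, and ovoid replicates 1 to 3 lay lower. The log2 fold changes of RELT and SNX14 in HIGH PA were -0.23 ± 0.46 and 0.27 ± 0.29. Of the genes under an unadjusted p of 0.05 in the 10 unmarked BASAL libraries, 872 higher and 1435 lower ones were tested in HIGH PA. Of the higher ones 84.1% had a log2 fold change above 0 there (51.6% of all 10382 genes tested in both). Of the lower ones 73.4% had one below 0 (48.4% of all). In both sets lane 8 held tubular libraries alone. Spearman's rho of exon length with log2 fold change was -0.11 in the unmarked BASAL libraries and -0.33 in HIGH PA. The part of lane and exon length in these shares was not tested. The difference of the shape effect between media was called for 0 of 10962 genes by edgeR, with 577 under an unadjusted p of 0.05 and 5 called by DESeq2. The typical error of that difference was 0.41 on the log2 scale (median SE), and the corresponding 95% interval reached 0.80 to either side.

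**Figure D5:**
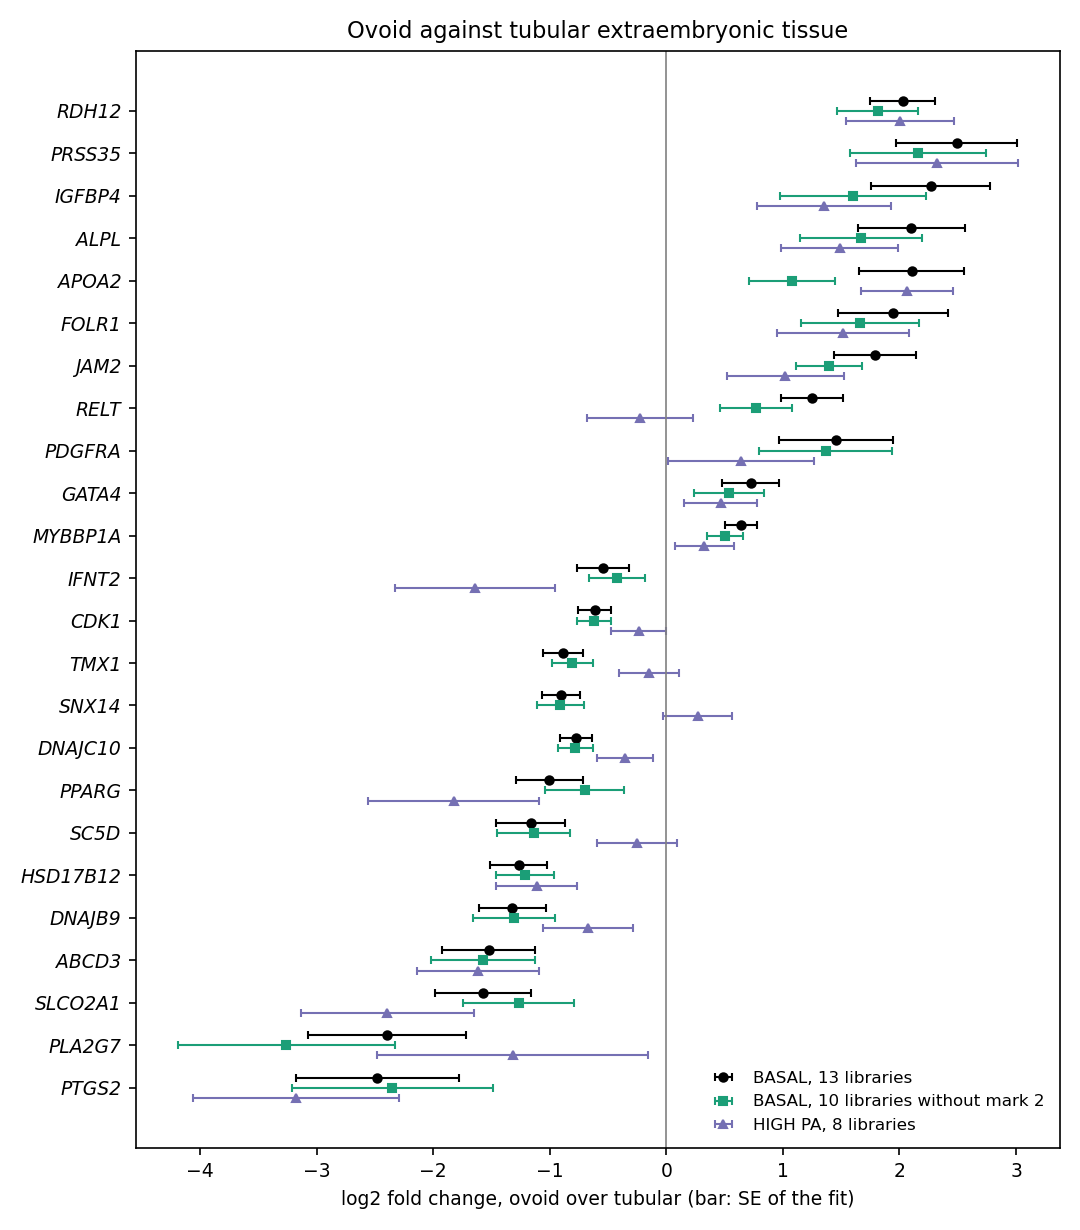
Log2 fold change of ovoid over tubular tissue with its SE for 24 genes, with 13 BASAL libraries (circles), the 10 unmarked BASAL libraries (squares) and 8 HIGH PA libraries (triangles). RDH12 lies at 2.03, 1.81 and 2.01 in the 3 fits, PTGS2 at -2.48, -2.35 and -3.18, and RELT and SNX14 lie on the other side of 0 in HIGH PA.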

How the data were processed

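Stranded, paired-end mRNA libraries of single day 14 embryos were sequenced. The deposited table gives read counts per gene over exons, made by the authors on the bovine build UMD3.1, per the submitters' processing notes, which also name DESeq2 1.10.1. No source used here names the aligner. The table has 24596 features, 18541 of them with a symbol, and 1074 of its columns were not used.

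Exon read counts of libraries with 10000 reads or more were filtered (filterByExpr), scaled by TMM and fitted with edgeR 4.0.16 (R 4.3.3) as sex plus shape, using the quasi-likelihood test with Benjamini-Hochberg adjustment over all genes tested. CPM are counts per 1000000 after TMM scaling, and an SE is the fold change divided by the root of F. DESeq2 1.42.0 and limma 3.58.1 served as alternatives. Replicate numbers follow accession order and pair nothing. The 4 against 9 libraries allow an exact permutation p no lower than 0.0014.

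Genes were named by a rule. It took the 6 of lowest p per direction, and up to 4 of largest change per direction among called genes of at least 5 CPM. With 1 gene called, the second part gave RDH12 alone. Up to 3 called members per list were added, or the member of lowest p where none was called. IFNT2, PPARG, PTGS2, GATA4, SOX2 and PLIN2 were always named. Others are said to be chosen after their values were seen. The members and lists were chosen with earlier results of these data known. The scripts were tested on simulated data. Alternatives were other scaling, filters, read types, terms for mark 2, lane and cow, males only, and leaving out each library or cow. Libraries of other tissues and shapes were not used here.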

Additional observations from a re-analysis of the deposited data

Results flagged for a closer look

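For the named genes and library properties, the highest or lowest library stood apart from its group by Dixon's ratio in 28 of 148 sets of values. The critical ratio is set to flag 1 in 20 sets of independent, normally distributed values. Here the CPM were not log-transformed, the genes share libraries and some were chosen after their values were seen. That rate need not hold, and no excess is read from the 28. Of the 28, 12 came from tubular replicate 8 and 5 from tubular replicate 6, which is unmarked.

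Tubular replicate 8 was highest of the 9 tubular libraries for ATP8 of the mitochondrial genome (4873 CPM, next 841.7), ASCL2, a trophoblast factor (680.9 CPM, next 296.4), GATA2 (404.1 CPM), TALDO1 (278.9 CPM), ELF3 (154.3 CPM), CD68, a macrophage marker (21.79 CPM, next 4.865), and AMN (4.003 CPM). It was lowest for LRP2 (1695 CPM, next 5066), ELOVL6, a fatty acid elongase (259.5 CPM), and VPS54 (42.47 CPM). Its mitochondrially encoded share was 20.93% and its scaling factor 0.6651. ASCL2 was chosen after its values were seen.

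Tubular replicate 6 was highest for PTGS2 (6881 CPM, next 2508), FAM213A (3968 CPM), SLCO2A1 (116.1 CPM), PLA2G7 (108.5 CPM) and BNIP3L (45.93 CPM). Replicate 10 was highest for CYP51A1 (251.8 CPM), replicate 1 for MSX1, a homeobox factor (4.715 CPM), and replicate 4 was lowest for JUP, plakoglobin (345.3 CPM).

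Among the 4 ovoid libraries, replicate 4 was highest for FAM213A (1660 CPM, next 314), PTGS2 (776.6 CPM, next 238.3), SLC27A6 (239.1 CPM, next 17.51) and MOGAT1 (220 CPM, next 111). Replicate 2 was highest for RBP4 (55.55 CPM) and IGFBP4 (6.979 CPM), replicate 3 for ITGA2 (2.303 CPM), and replicate 1 for ATP8 (1405 CPM, next 91.87).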

How the results depend on the processing

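The count of called genes with 13 libraries was 1. It was 560 with DESeq2, 3329 in males only (where mark 2 is on 2 of 3 ovoid and 0 of 5 tubular libraries) and 2724 without cow 13, whose sole library kept is tubular replicate 8. It was 0 with cow as a block, without the mark 2 libraries, with a term for mark 2 or for lane, and without cow 07, 12, 25, 66, 72 or 813. Leaving out 1 library gave 0 to 2724. Without tubular replicate 8 the count was 2724, and then 0 with cow as a block, a mark 2 term or a lane term. Leaving out a further library gave 802 (without ovoid replicate 2) to 3701 (without ovoid replicate 4). With cow as a correlated block limma-voom called 3293 there and 1 with 13 libraries, at cow correlations of -0.105 and 0.279. The HIGH PA count of 0 was 361 with DESeq2, 4 without a filter, 2 without the sex term and 0 to 3369 with 1 library left out, the highest without ovoid replicate 3. The interaction count of 0 was 5 with DESeq2. List members called were 0, but 34 with DESeq2, 198 in males only, 173 without cow 13 and 0 to 173 with 1 library left out. For cell type markers these values were 0, 3, 14, 13 and 0 to 13. Without tubular replicate 8 the ovoid minus tubular difference reversed for the mitochondrial share (1.27 points, exact permutation p = 0.426) and the scaling factor (-0.02165, exact permutation p = 0.515). Log2 fold changes reversed for CD68 with a mark 2 term (-0.099), PTGES with a lane term (0.13) and PTGES3 with cow as a block (0.010). By replicate number, no paired analysis was possible because the numbers follow accession order. Cows 07 and 12 carried both shapes. The fit with cow as a block, which compares embryos within those cows, gave 0 calls and 466 genes under an unadjusted p of 0.05. The embryos of cow 07 also differed in mark 2 and lane. Depth, from 3101968 to 11617942 exon reads, limits genes of a few CPM.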
